A study of Mus musculus with 10 samples.

Results

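Titin, the M-band proteins and the myosin-binding proteins hold the thick filament of the muscle sarcomere in place and tune how it pulls. The 9 genes described here are Ttn, Obsl1, Myom1, Myom2, Myom3, Mybpc3, Mybpc2, Mybph and Mybphl. They were taken by name from the 23337 genes of a table of read counts, and all 9 had an entry. The counts came from cardiomyocytes of mice aged 14 postnatal days that had been given AAV9-cTNT-Cre, a viral vector with Cre recombinase under the cardiac troponin T promoter, on postnatal day 1. In the knockout group (Actn2-FF, 5 animals) both alleles of Actn2 were floxed, so Cre could delete both. In the heterozygote group (Actn2-F+, 5 animals) a single allele was floxed. The heterozygotes are therefore controls that received the same virus and can themselves lose an allele, and no animal without Cre or with 2 normal alleles was compared. The cells were released by collagenase perfusion and sorted by fluorescence, and the labels do not name the sorted signal.

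Actn2 encodes alpha-actinin-2, which crosslinks actin at the Z-line and anchors titin's N-terminal end there. Titin runs from the Z-line to the M-band at the centre of the sarcomere, where myomesins and obscurin-like 1 tie it to myosin. Myosin-binding protein C sits on the thick filament between those points and modulates the myosin heads. Fast skeletal muscle and heart use different myosin-binding protein C genes, Mybpc2 and Mybpc3.

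Total counts ran from 8086656 to 25237696 per library, and 3 counts corresponded to 0.119 to 0.371 CPM (counts per 1000000 of the library total). All further CPM values use totals scaled by edgeR's TMM method. Actn2 itself fell from 3180 ± 358 to 1217 ± 55.3 CPM (mean ± SD, n = 5 in each group here and below), with every knockout below every heterozygote. Cardiomyocyte markers (Tnnt2, Tnni3, Myh6, Ryr2, Pln, Atp2a2 and Actc1) summed to 100900 to 129800 CPM in heterozygotes and 92990 to 117800 CPM in knockouts. Of these 7, Tnni3 (log2 fold change -0.53, adjusted p 0.00165 by edgeR) and Atp2a2 (-0.40, adjusted p 0.0243) were called lower, and none was called higher. Endothelial markers summed to 427.1 to 647.4 CPM and 282.6 to 469.3 CPM, with a median log2 fold change of -0.42 over 8 genes. All 8 were lower (-0.38 to -0.65), each at an unadjusted p below 0.05 by edgeR, and Egfl7 alone was called after adjustment. No marker of fibroblasts (6 tested) or of smooth muscle and pericytes (5 tested) was called. Their median log2 fold changes were -0.013 and -0.353. Of 3 tested macrophage and leukocyte markers Csf1r was called lower, and their median log2 fold change was -0.861. Macrophage and leukocyte markers summed to 9.938 to 22.43 CPM in heterozygotes and 5.998 to 8.783 CPM in knockouts, without overlap. In such bulk samples, fewer cells of a type and less RNA per cell cannot be told apart.

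Of the 9 genes, 7 passed the filter on low counts, each with at least 23 counts in every library. Mybpc2, Obsl1, Mybpc3 and Myom1 rose in the knockout, and Ttn, Myom2 and Myom3 did not pass the threshold (edgeR's quasi-likelihood test, adjusted p below 0.05). Over all 11870 genes tested, 18.9% were called in either direction and 10.2% were called higher. The median log2 fold change of the 7 genes was 0.43, against 0.0023 over all tested genes. None of the 7 was called lower, against 8.64% of all tested genes. At an unadjusted p below 0.05, or at an adjusted p below 0.05 with DESeq2 or voom, 0 were lower. With 7 genes, 0 lower calls is near the share over all tested genes and is not read as a trait of the members. Groups did not overlap in 3 of the 7, with the knockout above in each. That pattern was seen in 8.41% of all tested genes, while 6.32% had the knockout below. The members were chosen with earlier results of these data known, so these shares are not an independent comparison.

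**Figure D1:**
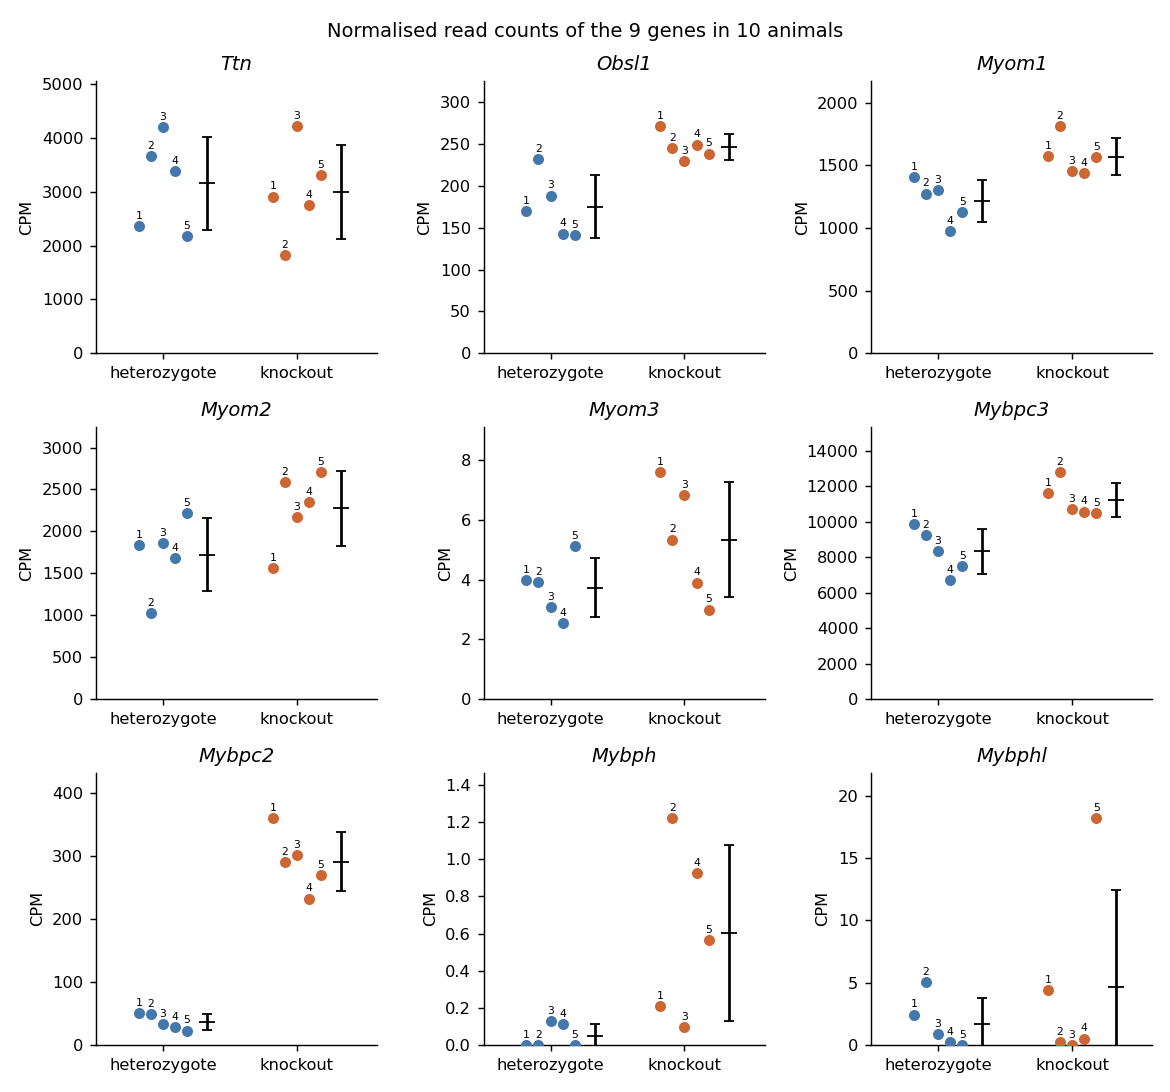
Normalised read counts in CPM (vertical axes, each starting at 0) of the 9 genes in 5 heterozygote and 5 knockout animals. Points are animals with their replicate numbers, and the bars beside them are the mean and SD, cut off at 0. Mybpc2 separates the groups most widely, while Ttn spans 1820 to 4213 CPM with the groups mixed.

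The start regions of the 4 genes that rose are given as 300 bases from 250 before the start site to 50 from it on (RefSeq, build GRCm38.p6). They were searched on both strands for the SRF-binding CArG box, the MEF2 motif, MCAT (CATTCC, known as a TEAD site) and TATAAA. Capitals mark the matches. A start region was found for 8 of the 9 genes, and its start site was the one of the count table's annotation in each. Myom2 had no entry.
Mybpc2, chr7:44524620-44524919, minus strand: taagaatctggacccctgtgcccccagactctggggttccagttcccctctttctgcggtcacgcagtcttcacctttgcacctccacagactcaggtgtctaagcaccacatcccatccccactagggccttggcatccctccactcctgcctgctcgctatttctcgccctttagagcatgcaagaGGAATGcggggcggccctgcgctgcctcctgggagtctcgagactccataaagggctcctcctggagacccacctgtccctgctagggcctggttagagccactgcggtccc
Mybpc3, chr2:91117894-91118193, plus strand: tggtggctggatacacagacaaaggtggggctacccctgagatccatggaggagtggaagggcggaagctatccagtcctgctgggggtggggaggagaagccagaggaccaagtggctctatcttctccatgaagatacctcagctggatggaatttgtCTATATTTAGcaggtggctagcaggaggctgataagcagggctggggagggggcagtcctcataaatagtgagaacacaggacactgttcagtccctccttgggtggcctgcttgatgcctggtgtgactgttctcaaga
Obsl1, chr1:75506403-75506702, minus strand: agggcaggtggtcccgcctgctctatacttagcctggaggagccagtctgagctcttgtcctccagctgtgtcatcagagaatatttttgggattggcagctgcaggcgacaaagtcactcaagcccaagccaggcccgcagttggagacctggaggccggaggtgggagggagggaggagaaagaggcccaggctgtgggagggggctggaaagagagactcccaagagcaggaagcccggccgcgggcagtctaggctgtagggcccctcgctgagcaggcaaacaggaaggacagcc
Myom1, chr17:71019307-71019606, plus strand: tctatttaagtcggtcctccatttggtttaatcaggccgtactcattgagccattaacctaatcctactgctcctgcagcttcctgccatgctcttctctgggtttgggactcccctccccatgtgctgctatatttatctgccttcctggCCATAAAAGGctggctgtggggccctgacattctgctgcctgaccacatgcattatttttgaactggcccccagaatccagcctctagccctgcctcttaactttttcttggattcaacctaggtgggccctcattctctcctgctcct

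Each region held a different match or none. That of Mybpc2 has MCAT on the opposite strand, with its first letter 62 bases before the start site, a motif held by 14.7% of 32817 such regions. That of Mybpc3 has a MEF2 motif from 90 bases before the start site (3.19% of regions), and that of Myom1 a CArG box from 99 bases before it (1.63%). None of the 4 motifs matched in the Obsl1 region. Among the other members, the regions of Ttn and Myom3 hold a MEF2 motif, that of Ttn also MCAT, that of Mybph MCAT and TATAAA, and that of Mybphl none. None of the 4 motifs was found in all 4 regions of the genes that rose. A role of these motifs in the changes was not tested.

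Mybpc2 showed by far the widest change of the 7. The gene encodes the fast skeletal form of myosin-binding protein C and lies on the minus strand of chromosome 7 at 44501699 to 44524669 (build mm10); the counting annotation gives it 28 exons. Its level was 50.8, 49.4, 32.9, 28.6 and 22.8 CPM in heterozygotes 1 to 5. In knockouts 1 to 5 it was 359.9, 290.2, 301.0, 232.1 and 269.4 CPM. Every knockout lay above every heterozygote, and the lowest knockout was above the highest heterozygote by a wide margin. The means were 36.9 ± 12.6 and 290.5 ± 46.9 CPM, a log2 fold change of 2.97 with an SE of 0.21 (adjusted p 6.63e-07 by edgeR), or 7.84-fold with a 95% interval of 5.74 to 10.7. The call held in each of 10 fits that left out 1 animal, with log2 fold changes of 2.84 to 3.12, and under the 11 other settings tried, with 2.79 to 3.06.

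Fast skeletal muscle markers were low in both groups. Myh4, Myh1, Myh2, Tnnt3, Tnni2, Actn3, Pvalb and Mylpf together summed to 3.05 to 5.89 CPM in heterozygotes and 2.54 to 7.71 CPM in knockouts. Only Tnni2 (log2 fold change 0.06, adjusted p 0.933) and Mylpf (0.81, adjusted p 0.167) passed the filter on low counts, and neither was called. The fast myosin heavy chain genes Myh4, Myh1 and Myh2 averaged at most 0.214 CPM in either group.

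Mybpc3 encodes the cardiac form of myosin-binding protein C, a major hypertrophic cardiomyopathy gene, and lies on chromosome 2 at 91118144 to 91136516. It was at 9880, 9239, 8335, 6704 and 7498 CPM in heterozygotes 1 to 5, and at 11600, 12800, 10740, 10580 and 10500 CPM in knockouts 1 to 5. The groups did not overlap, although knockout 5 and heterozygote 1 were close. The means of 8331 ± 1281 and 11240 ± 974 CPM gave a log2 fold change of 0.43 with an SE of 0.11 (adjusted p 0.0117 by edgeR), or 1.35-fold. The call was lost with endothelial marker expression as a covariate (log2 fold change 0.35, adjusted p 0.183).

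Per unit of transcript length, Mybpc3 remained the dominant form of the pair. Levels of different genes are compared here as counts divided by exonic length and scaled to 1000000 over the table (TPM). Mybpc2 made up 0.586, 0.608, 0.450, 0.487 and 0.347% of Mybpc2 plus Mybpc3 in heterozygotes 1 to 5, a mean of 0.496% ± 0.106. In knockouts 1 to 5 it made up 3.43, 2.53, 3.11, 2.45 and 2.86%, a mean of 2.88% ± 0.407. The shares of the groups did not overlap, and Mybpc3 still supplied the bulk of the pair in every animal.

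Obsl1 encodes obscurin-like 1, a cytoskeletal adaptor that binds titin and myomesin at the M-band, on the minus strand of chromosome 1 at 75485825 to 75506452. It was at 170.1, 232.2, 188.3, 142.8 and 140.7 CPM in heterozygotes 1 to 5. In knockouts 1 to 5 it was at 270.8, 245.2, 229.1, 249 and 238.3 CPM. The groups overlapped only in that heterozygote 2 lay just above knockout 3. The means of 174.8 ± 37.7 and 246.5 ± 15.6 CPM gave a log2 fold change of 0.50 with an SE of 0.13 (adjusted p 0.0149 by edgeR). The call held without any single animal, but not with the endothelial covariate (log2 fold change 0.47, adjusted p 0.148) or with a per-sample offset for gene length (0.34, adjusted p 0.112).

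The myomesins crosslink neighbouring thick filaments at the M-band. Myom1 encodes myomesin-1, the form found in all striated muscle, on chromosome 17 at 71019557 to 71126856. It was at 1406, 1274, 1305, 978.4 and 1126 CPM in heterozygotes 1 to 5, and at 1575, 1811, 1457, 1439 and 1566 CPM in knockouts 1 to 5. The groups did not overlap, with heterozygote 1 just below knockout 4. The log2 fold change was 0.37 with an SE of 0.11 (adjusted p 0.0260 by edgeR), or 1.29-fold. The call was lost without heterozygote 5 (adjusted p 0.0617), without knockout 2 (0.0711), with the length offset (0.146) and with the endothelial covariate (0.327).

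Myom2 encodes M-protein, a myomesin of fast skeletal and cardiac muscle, and lies on chromosome 8 at 15057653 to 15133419. It was at 1835, 1024, 1859, 1685 and 2219 CPM in heterozygotes 1 to 5, and at 1562, 2592, 2167, 2347 and 2706 CPM in knockouts 1 to 5. Knockout 1 lay among the heterozygotes and heterozygote 2 lay below all other animals. The log2 fold change of 0.40 (SE 0.18) did not pass the threshold (edgeR adjusted p 0.145), and its 95% interval ran from 0.01 to 0.79. The balance of Myom2 and Myom1 was compared as a ratio, which within a library does not depend on scaling between libraries. The length-corrected ratio of Myom2 to Myom1 averaged 1.64 in heterozygotes and 1.65 in knockouts, with a log2 difference of 0.046 whose sign changed when single animals were left out (exact two-sided permutation p = 0.833, and 0.833 adjusted over the 3 ratios tested). Myom2 made up 60.8% ± 8.23 of the 3 myomesins per length in heterozygotes and 61.6% ± 5.24 in knockouts.

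Myom3 encodes the third myomesin, known from skeletal muscle, on chromosome 4 at 135759715 to 135815564. It was low in all animals, at 2.55 to 5.12 CPM in heterozygotes and 2.999 to 7.60 CPM in knockouts, which is 23 to 95 counts per library. Its log2 fold change of 0.49 (SE 0.28) did not pass the threshold (adjusted p 0.239, 95% interval -0.099 to 1.08).

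Ttn lies on the minus strand of chromosome 2 at 76703984 to 76982547, and its 104320 exonic bases are the most of any gene in the table. It was at 2365, 3662, 4193, 3377 and 2170 CPM in heterozygotes 1 to 5, and at 2910, 1820, 4213, 2749 and 3306 CPM in knockouts 1 to 5. The groups overlapped across nearly the whole range, and animals of the same genotype differed more than the group means of 3153 ± 863 and 3000 ± 870 CPM. The log2 fold change was -0.07 with an SE of 0.21 (adjusted p 0.854 by edgeR), and its 95% interval of -0.52 to 0.38 is 0.696 to 1.30-fold. Changes within that interval were not resolved, and the sign changed with some settings. The length offset gave the lowest log2 fold change, -0.29 (adjusted p 0.348 by edgeR).

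Other long transcripts were set beside Ttn. Relative to the mean of each gene over the 10 animals, Ttn was lowest in knockout 2 (-0.71 log2) and heterozygotes 5 and 1 (-0.45 and -0.33). The median of the 594 tested genes of at least 7824 exonic bases was 0.135, -0.178 and -0.103 in the same 3 animals. The lowest median, -0.197, was in heterozygote 2, where Ttn was high (0.30). Over the genotypes, that median was -0.197 to 0.028 in heterozygotes and -0.009 to 0.222 in knockouts. Counts per gene cannot show which titin isoforms were made. Mybpc3 to Ttn and Myom1 to Ttn ratios were 1.43-fold and 1.37-fold higher in the knockout by their log2 means, with overlapping groups (exact permutation p = 0.159 and 0.222, each 0.333 after adjustment). Without knockout 2 the log2 differences were 0.31 and 0.23, against 0.52 and 0.45 with it.

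**Figure D2:**
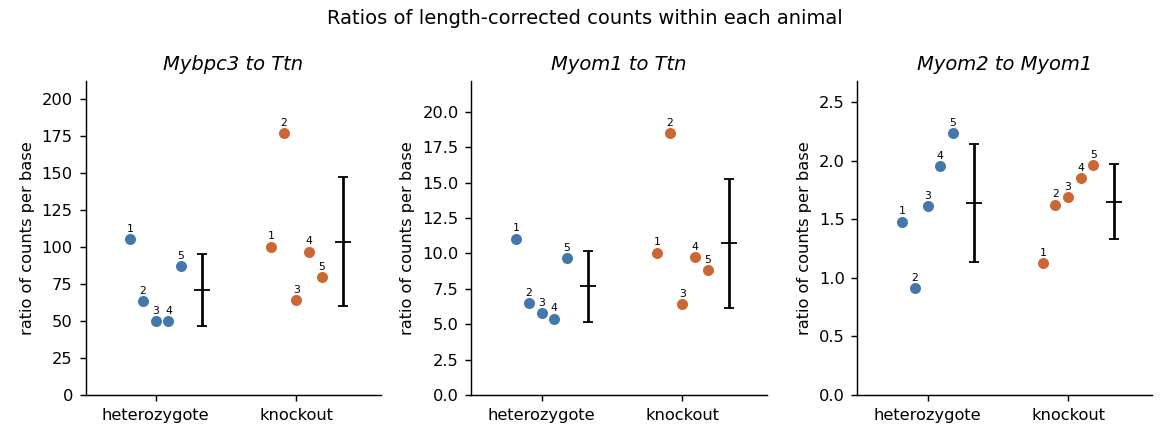
Ratios of counts per base of exonic length (vertical axes, starting at 0) for 3 gene pairs in 5 heterozygotes and 5 knockouts, with replicate numbers at the points and mean ± SD beside them. The groups overlap in all 3 ratios, and knockout 2, with the least Ttn, is the highest in both ratios to Ttn.

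Mybph and Mybphl were below the filter on low counts and were not tested with the other genes. Mybph encodes myosin-binding protein H, a shorter relative of myosin-binding protein C known from skeletal muscle, on chromosome 1 at 134193448 to 134201232. It had 0, 0, 1, 1 and 0 counts in heterozygotes 1 to 5 and 2, 16, 1, 9 and 10 counts in knockouts 1 to 5. Only 3 knockouts had more than 2 counts, and knockout 3 was no higher than the heterozygotes with a count. Summed over animals, 38 counts against 2 gave a ratio of 18.6 with an exact 95% interval of 4.79 to 159, which covers counting error only. In a fit without the filter it was called (log2 fold change 3.72, adjusted p 0.0153 over 17106 genes). Of its exonic bases, 36.2% overlap Adora1, and reads there are assigned to neither gene.

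Mybphl encodes a myosin-binding protein H-like protein of the atria and the conduction system, on chromosome 3 at 108364911 to 108380057. It was at 2.44, 5.04, 0.897, 0.222 and 0 CPM in heterozygotes 1 to 5. In knockouts 1 to 5 it was at 4.37, 0.229, 0, 0.513 and 18.2 CPM. Knockout 5 was far above all others, and without it the remaining knockouts averaged 1.28 ± 2.07 CPM, against 1.72 ± 2.08 CPM in heterozygotes. The fit without the filter gave no call (log2 fold change 1.49, adjusted p 0.376).

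Some atrial markers moved with Mybphl. The atrial light chain gene Myl7 was at 22.4, 36.1, 5.90, 3.996 and 0.197 CPM in heterozygotes 1 to 5, and at 44.4, 2.90, 2.15, 6.47 and 176.7 CPM in knockouts 1 to 5. The 4 animals with the most Mybphl were also the 4 with the most Myl7, the most Sln and the most Dkk3. For Myl4, 3 of the top 4 animals were shared with Mybphl, and for Nppa and Bmp10 2 each. Bmp10, a growth factor gene of the atria, had 230 counts in knockout 5 and 0 to 2 in every other animal. Of the 6 atrial markers, Myl7, Myl4, Sln, Dkk3 and Bmp10 were highest in knockout 5, while Nppa was highest in knockout 1. The 6 summed to 66.3 to 302.3 CPM in heterozygotes and 938.5 to 2348 CPM in knockouts, most of it Nppa. Nppa alone was at 50.5 to 224.5 CPM in heterozygotes and 918.5 to 2262 CPM in knockouts, so the sum mainly follows this gene. For Myl7, Myl4, Sln, Dkk3 and Bmp10 the groups overlapped. Of the 5 atrial markers tested, Nppa alone was called (higher), and none of the 5 was called lower. Of the conduction cell markers, Cacna1g rose (log2 fold change 1.05, adjusted p 8.01e-05 by edgeR). Gja5 (-0.71, adjusted p 0.148), Cntn2 (-0.195, 0.813) and Hcn4 (0.11, 0.842) were not called, and Shox2 was below the filter. The median log2 fold change of the 4 tested was -0.042. The part of atrial RNA in the Mybphl values was not tested. Mybpc2 was at 269.4 CPM in knockout 5, within the range of the other knockouts, and without that animal its log2 fold change was 2.997. Whether atrial RNA had a part in the Mybpc2 values was not tested either.

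**Figure D3:**
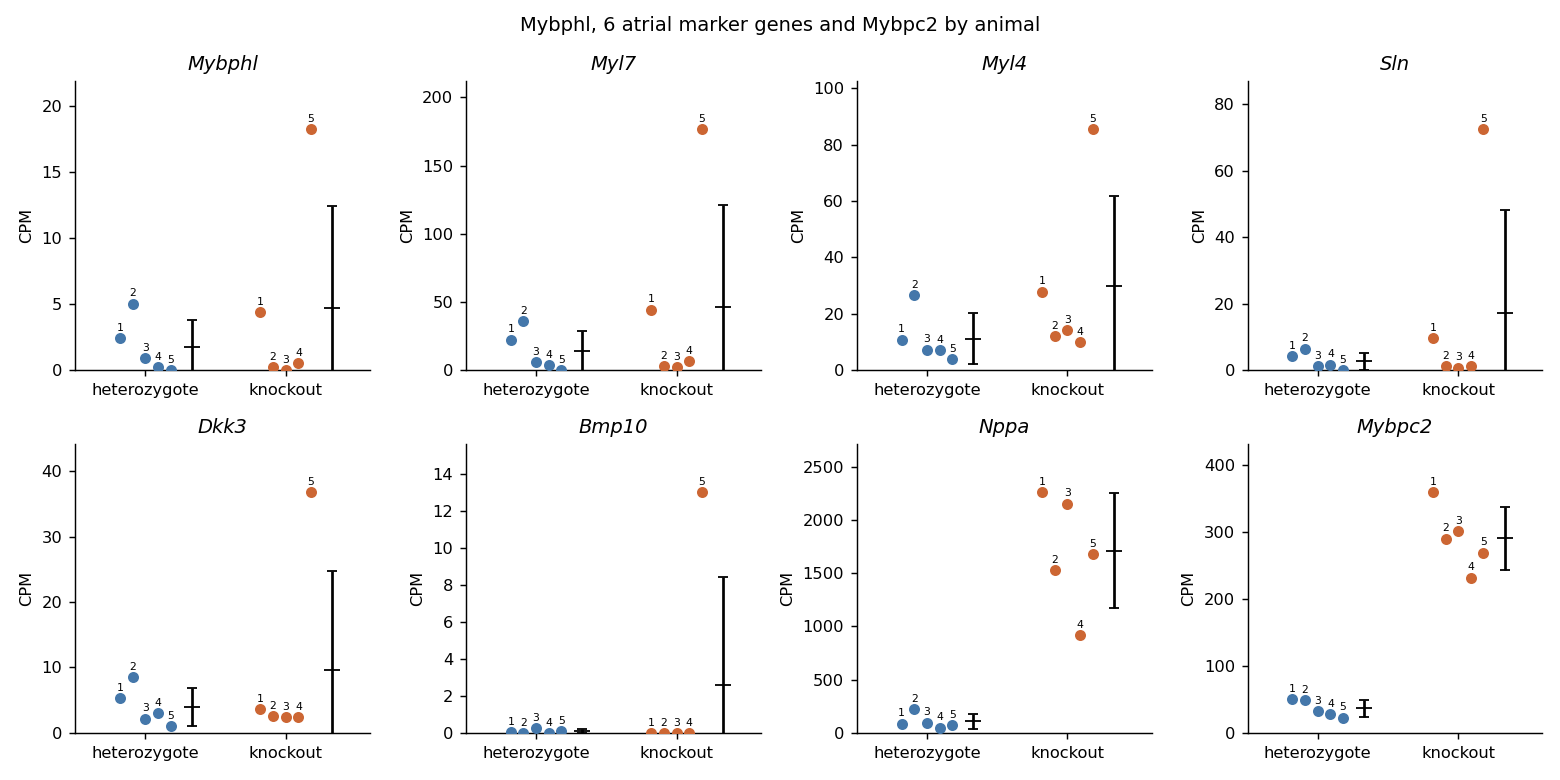
Normalised read counts in CPM (vertical axes, starting at 0) of Mybphl, the 6 atrial markers and Mybpc2 in each animal, with replicate numbers and mean ± SD, the bars cut off at 0. Knockout 5 stands apart in Mybphl (18.2 CPM) and in Myl7, Myl4, Sln, Dkk3 and Bmp10, and not in Mybpc2.

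Compared per length, the 9 genes spanned several orders of magnitude. In heterozygotes Mybpc3 was at 3692 ± 534 TPM, Myom2 at 644 ± 170 TPM and Myom1 at 399 ± 55.3 TPM. Ttn (55.8 TPM, 37.7 to 76.9) and Obsl1 (55.6 ± 10.9 TPM) came next and did not differ beyond their spread. Mybpc2 followed at 18.7 ± 6.06 TPM, and Mybphl (2.42 ± 2.86), Myom3 (1.23 ± 0.300) and Mybph (0.0497 ± 0.0684) were the lowest. In knockouts Mybpc2, at 165.8 ± 20.7 TPM, stood above Obsl1 (88.6 ± 5.37 TPM) and Ttn (59.4 TPM, 38.4 to 80.9). Ttn was the second of the 9 by mean CPM in both groups. Per length it was the fourth in heterozygotes, level with Obsl1, and the sixth in knockouts, and its length here includes exons that heart transcripts can leave out.

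The other genes of titin, the thick filament and the M-band were taken from a list of 29, of which 26 were tested. Of these, 8 rose, 3 fell and 15 did not pass, with a median log2 fold change of 0.10. Over all tested genes, 10.2% were called higher and 8.64% lower. The list was chosen with earlier results of these data known, so its share of calls is not an independent comparison. The 15 that did not pass had log2 fold changes of -0.24 to 0.33. Titin-binding and signalling genes made up most of the rises, with 6 of 13 higher and 1 lower. Myh7 was the only one of 6 thick-filament genes that was called, where 18.9% of all tested genes were. This gene of the slow, fetal myosin heavy chain rose from 445.3 ± 316 to 6394 ± 2908 CPM (3.85 on the log2 scale, adjusted p 0.00048 by edgeR), and 7.65% of its exonic bases overlap D830015G02Rik.

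**Figure D4:**
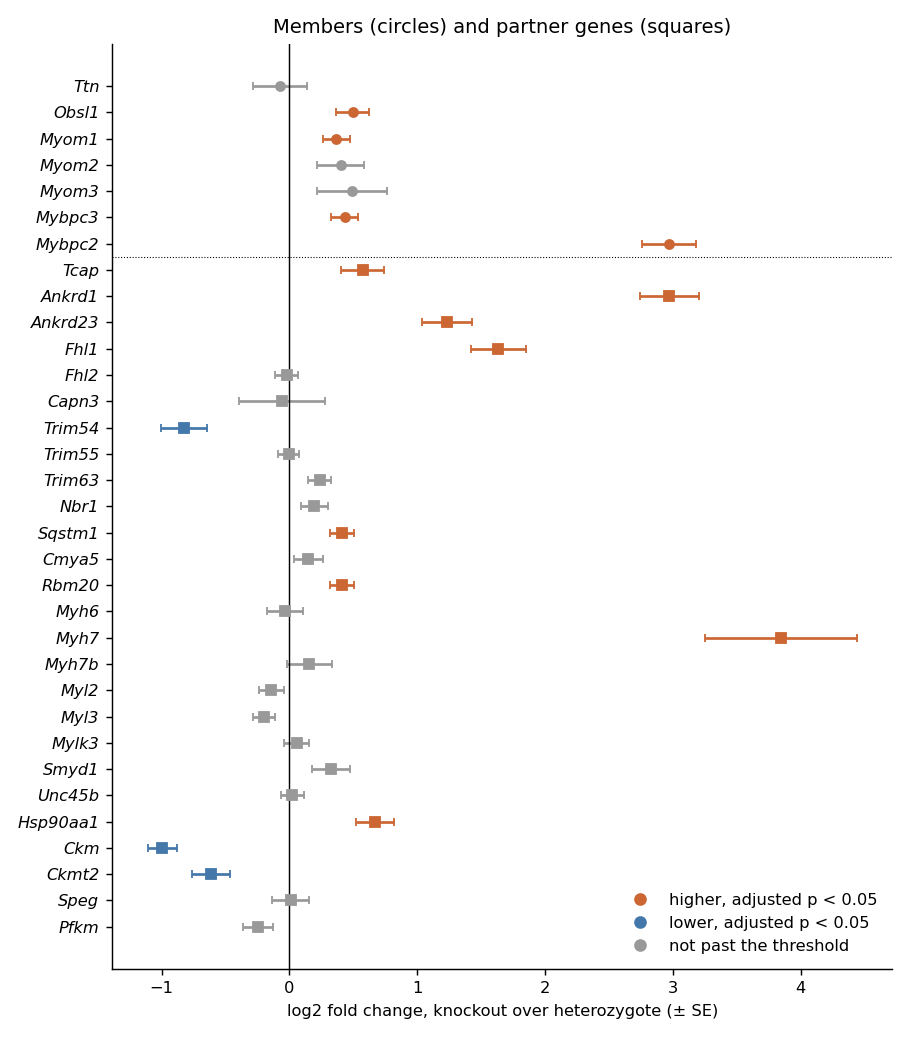
Log2 fold changes of knockout over heterozygote (horizontal axis, bars are SE) for the 7 tested members (circles, above the dotted line) and 26 partner genes (squares), from 5 animals in each group. Mybpc2 (2.97) lies with Ankrd1 (2.97) and Myh7 (3.85), far to the right of the other members.

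Among the 13 titin-binding and signalling genes, Ankrd1 and Ankrd23, which encode stretch-responsive ankyrin repeat proteins, both rose. Ankrd23 went from 256.2 ± 88.6 to 601.5 ± 88.4 CPM (1.23 on the log2 scale, SE 0.20, adjusted p 0.000588 by edgeR), and Ankrd1 had a log2 fold change of 2.97. Fhl1, a LIM protein gene, rose from 96.2 ± 12.3 to 298.9 ± 127 CPM (1.64, adjusted p 0.000147), with knockout 1 the highest at 518 CPM. These calls held under all settings tried. Fhl2, another LIM protein gene (-0.02, adjusted p 0.907), Capn3, the gene of a muscle calpain (-0.06, adjusted p 0.933), Nbr1 (0.20, adjusted p 0.215) and Cmya5 (0.15, adjusted p 0.383) were not called.

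The other calls of this list were smaller and went both ways. Tcap, the gene of telethonin that caps titin in the Z-disc, rose from 1438 ± 430 to 2138 ± 214 CPM (log2 fold change 0.57, edgeR adjusted p 0.0259). That call was lost at similar log2 fold changes without heterozygote 3 (0.55, adjusted p 0.0531), heterozygote 5 (0.55, 0.0539) or knockout 3 (0.52, 0.0683), and with the endothelial covariate at 0.34 (0.394). Of the 3 MuRF ubiquitin ligase genes, Trim54 fell from 87.9 ± 23.3 to 49.5 ± 11.3 CPM (log2 fold change -0.83, adjusted p 0.00569), while Trim63 (0.24, adjusted p 0.0773) and Trim55 (-0.01, adjusted p 0.966) were not called. Sqstm1, whose product p62 works with the titin kinase domain, rose by 0.41 (adjusted p 0.00758). Rbm20, the splicing factor gene that sets titin isoforms, also rose by 0.41, from 289.0 ± 30.7 to 384.4 ± 32.0 CPM (adjusted p 0.00856). The Sqstm1 and Rbm20 calls were lost with the endothelial covariate (log2 fold changes 0.32 and 0.26, adjusted p 0.179 and 0.250), and Rbm20 also with the length offset (0.22, 0.0893).

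Of 7 genes of myosin folding and M-band enzymes, 1 rose, 2 fell and 4 were not called: Smyd1 (0.33, adjusted p 0.143), Unc45b (0.02, 0.892), Speg (0.01, 0.971) and Pfkm (-0.24, 0.169). Ckm, the gene of the muscle creatine kinase that docks at the M-band, fell from 4274 ± 826 to 2145 ± 115 CPM (-0.995 on the log2 scale, SE 0.11, adjusted p 4.12e-05 by edgeR), with every knockout below every heterozygote. Its mitochondrial partner Ckmt2 fell from 3452 ± 516 to 2252 ± 506 CPM (-0.62, adjusted p 0.0105). Hsp90aa1, a chaperone gene whose product takes part in myosin folding, rose by 0.67 (adjusted p 0.00587). With the endothelial covariate the Ckmt2 and Hsp90aa1 calls were lost (adjusted p 0.0937 and 0.111), while their log2 fold changes stayed near those without it (-0.61 and 0.60).

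Outside these lists, the 2 genes closest to each called member over the 10 animals were found by the root-mean-square distance between log2 CPM values centred on each gene's mean, among 8306 genes. For Obsl1 these were Ehbp1l1 (0.0673) and Slc25a23 (0.0802). For Myom1 they were Spnb1 (0.0515) and Abtb2 (0.0547), and for Mybpc3 they were Ddo (0.067) and Slc12a7 (0.0743). The distance is not scaled to the size of a gene's change, so it cannot be compared between Mybpc2 and the members with smaller changes. The nearest genes of Mybpc2 were Masp1 at 0.315, which went from 13.2 to 75.2 CPM, and Fzd2 at 0.418, which went from 8.06 to 43.7 CPM.

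**Figure D5:**
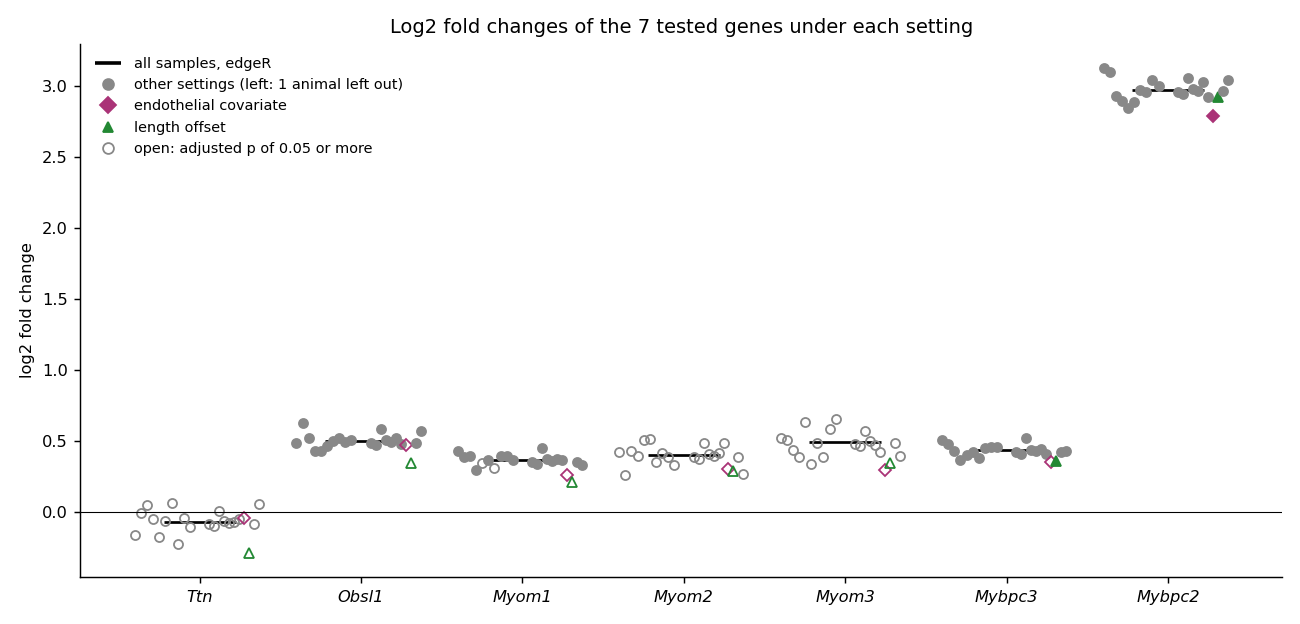
Log2 fold changes (vertical axis) of the 7 tested genes with all samples (black lines), with 1 animal left out (10 circles to the left of each centre) and under 11 other settings (to the right); open symbols have an adjusted p of 0.05 or more. All Mybpc2 values lie between 2.79 and 3.12 and pass. Obsl1, Mybpc3 and Myom1 do not pass with the endothelial covariate (diamonds), and Ttn, Myom2 and Myom3 pass under no setting.

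The covariate, the mean log2 CPM of the endothelial markers, was 5.49 to 6.21 in heterozygotes and 4.90 to 5.61 in knockouts. With it, 942 genes were called in all, against 2241 without it. Mybpc2 was the one member then called. The part of endothelial RNA in the smaller rises of Obsl1, Mybpc3 and Myom1 was not tested. The covariate differed between the genotypes, so this fit cannot fully tell endothelial RNA and genotype apart. With the covariate the log2 fold changes of these genes were 0.47, 0.35 and 0.26 (SE 0.18, 0.15 and 0.14). Without it they were 0.50, 0.43 and 0.37, with smaller SEs of 0.13, 0.11 and 0.11.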

How the data were processed

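The authors deposited whole-number read counts per gene, not normalised, made with featureCounts 1.5.1 against the UCSC annotation of mm10 in an archive of 2012, per the file headers. Beside annotation and output, that run set only 4 threads, so by the defaults reads were counted without strand and reads on several genes were left out. STAR 2.5.3a and Subread 1.5.2 are named in the submitters' processing notes, while the header's alignment files carry the default name of another aligner. Libraries used 10 ng of RNA, 8 PCR cycles and 500 pg of cDNA, per the labels' protocols. Of 14 count columns, 10 matched samples by name and 4 were not used.

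Genes were kept by edgeR's filterByExpr (minimum count 10, minimum total 15), scaled by TMM and compared with glmQLFTest (edgeR 4.0.16, R 4.3.3). P-values were adjusted by Benjamini-Hochberg over 11870 genes, and intervals of log2 fold changes use the test's own degrees of freedom. DESeq2 1.42.0 and limma 3.58.1 (voom) were alternatives, beside other scalings, filters, covariates, a length offset over 20 bins and leaving out each animal. Ratios were compared by exact permutation of the group means. Log2 CPM used a prior count of 1. On simulated counts for the 11870 genes, 77.6% of 98 genes changed 2-fold and 100% of 98 changed 4-fold were called. Unchanged genes made up 2.79% of what was called there. Changes under 2-fold, such as those of Obsl1, Mybpc3 and Myom1, were not simulated. Far fewer genes were changed in the simulation than were called in the data.

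The members and lists were chosen with earlier results of these data known. Genes named are Actn2, the 9 members, genes of the partner and marker lists, and for each called member with at least 10 CPM the 2 nearest genes outside the lists. Of 5 planned ratios, that of Mybphl to Mybpc3 was not tested because of counts of 0. Another, with the gene of the partner list that it needs, is not reported here, so counts over that list leave this gene out and adjustment ran over 3 ratios. Replicates within a group differed by a chi-square of 10.8 to 37.5 per degree of freedom over 20 pairs, so none looked like a copied library. The series text calls the replicates biological.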

Additional observations from a re-analysis of the deposited data

Results flagged for a closer look

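Of 26 groups of 5 values examined (the 9 members, 3 ratios and the total counts in each genotype), 2 held an animal set apart from its nearest neighbour by more than 0.71 of the spread between lowest and highest. Chance alone does so in about 1 of 20 groups of normally distributed values, which low counts, totals and ratios need not follow. At that rate, 2 of 26 is near what chance gives. Mybphl was at 18.22 CPM in knockout 5, against 4.37 CPM in the next highest knockout (gap 0.76 of the range). Of the 6 atrial markers, 5 were highest in the same animal. The total of heterozygote 1 was 25237696 counts and the next largest of its genotype 10309615, a gap of 0.87 of the range. Without it the same number of members, 4, was called, and without knockout 5 it was 4 as well.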

How the results depend on the processing

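All 7 tested members were fitted under every setting except Myom3, which a filter at a mean of 5 CPM removed. Of 146 combinations of member and setting, 135 kept direction and side of the threshold, 7 lost a call and 4 reversed. Ttn reversed with library totals (0.0083), with voom (0.054) and without heterozygote 3 or knockout 2, its range without single animals being -0.23 to 0.063. The endothelial covariate left 942 genes called (488 higher, 454 lower), 1 member (1 higher) and 6 partner genes (4 higher, 2 lower), and the length offset left 2 members (2 higher). The cause was not tested. Without single animals 3 to 4 members and 10 to 12 partner genes were called. The log2 differences of the ratios then ran from -0.15 to 0.18 for Myom2 to Myom1, from 0.31 to 0.68 for Mybpc3 to Ttn and from 0.23 to 0.61 for Myom1 to Ttn. Library totals split the calls into 1684 higher and 760 lower, against 1216 and 1025. Without division by length, Ttn ranked 2 of 9 in heterozygotes in place of 4.

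Replicate numbers are shared by the groups, but deviations of same-numbered animals correlated at -0.060 to 0.185, with 3 of 5 over 0.1, so they were not treated as pairs, which needed every correlation over 0.1. Of the heterozygotes, 2 correlated best with the knockout of their own number. With the replicate block 2182 genes and 4 members were called. Exact paired tests of the ratios cannot pass 0.05 with 5 pairs and are not read. Depth limits Mybph and Mybphl most, and Myom3 next.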
